A study of Mus musculus with 6 samples.

Results

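The clustered histone genes are the replication-dependent genes that make the linker histone H1 and the core histones H2A, H2B, H3 and H4. They were taken as every gene whose symbol starts with Hist1h, Hist2h, Hist3h or Hist4h, which gave 67 of the 23284 genes in the deposited tables. By the class written in the symbol, 6 were H1 genes, 18 H2a, 18 H2b, 12 H3 and 13 H4. By cluster, 53 carried the prefix Hist1, 10 Hist2, 3 Hist3 and 1 Hist4. Of the 67 genes, 32 had a mean of at least 1 FPKM (fragments scaled to transcript length in kilobases and to the number of mapped reads) over the 6 libraries and were tested.

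Each time a cell copies its DNA, it must also package the new strands, and the clustered histone genes are transcribed in bulk during S phase for that purpose. Their transcripts are unusual. They normally carry no introns and end in a short stem-loop instead of a poly(A) tail, and the stem-loop binding protein Slbp holds that end during processing, translation and decay. When DNA synthesis stops, these transcripts are normally degraded. Some of the genes can also yield polyadenylated transcripts. Cytarabine is a nucleoside analog that is incorporated into DNA and blocks its synthesis, so the histone genes are a natural set to read in cells exposed to it.

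The cells were C1498, a murine acute myeloid leukemia (AML) line, made to express EGFP with a retrovirus and grown from 1 selected clone, so both groups stem from the same clone. They were injected intravenously into C57BL/6J mice, for which the methods describe young adult females unless stated otherwise. On day 21, marrow cells positive for GFP and CD49b were sorted from 3 cytarabine-treated mice and 3 control mice, with 1 library per mouse (cytarabine 1 to 3 and control 1 to 3). The sample records call the controls both PBS-treated and untreated, and cytarabine was given intraperitoneally shortly before imaging in the same study, without a dose or schedule stated for the sequenced mice in particular. The libraries were made with a stranded mRNA kit, which selects RNA by its poly(A) tail, so the values below describe mainly those histone transcripts that carried one. In bulk samples of this kind, fewer cells of a type and less RNA per cell cannot be told apart.

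Some libraries stood apart along a line that crossed the groups. The summed FPKM of 14 colon genes ranged from 369 to 5287 in the cytarabine libraries and from 28.5 to 2351 in the control libraries, with the higher sums in cytarabine 2, cytarabine 3 and control 1. The summed level of 10 neutrophil genes was 248 to 1482 FPKM with cytarabine and 1487 to 2097 FPKM in controls, without overlap. Of the 10, 7 were lower at an unadjusted limma p under 0.05, against 9.81% of all tested genes, and none had a mean under 1 FPKM. The sums of 7 erythroid genes were 134 to 165 FPKM with cytarabine and 24.4 to 78.7 FPKM in controls. Of the 4 of them tested, none had groups without overlap or an unadjusted limma p under 0.05. The other 3 had means under 1 FPKM. The sums were 8.0 to 794 against 61.9 to 3042 FPKM for 10 heart genes, and 58.3 to 544 against 6.78 to 367 FPKM for 6 smooth muscle genes. For 8 macrophage genes they were 16.1 to 62.9 against 14.0 to 156 FPKM, for 7 B cell genes 6.34 to 14.4 against 6.35 to 7.09 FPKM, and for 12 T and NK cell genes 595 to 803 against 709.8 to 859 FPKM. Cd3g and Cd3e made up most of that last sum and had overlapping groups, with log2 fold changes of -0.24 and -0.29. The other 3 of the 5 T and NK cell genes tested, Cd3d, Klrb1c and Gzma, were higher without overlap, against 10.9% of all tested genes. Their log2 fold changes were 0.86, 0.65 and 1.26 (limma unadjusted p = 0.000854, 0.0189 and 0.0108), at much lower levels than Cd3g and Cd3e. The 9 genes of a myeloid leukemia list, which includes the sort marker gene Itga2, summed to 303 to 538 FPKM with cytarabine and 336 to 432 FPKM in controls. Of the 8 tested, Itga2, Itgam and Csf3r were lower at an unadjusted limma p under 0.05 (3 genes, against 9.81% of all tested genes). Lower without overlap were 4 (against 12.9%), and Cebpa was higher without overlap, as was Kit, which was not tested. Mpo and Elane were at 71.1 and 81.7 FPKM in cytarabine 1 and at 12.3 FPKM or less in every other library. Which cells these transcripts came from was not tested. In the same list, Ptprc, the pan-leukocyte antigen CD45, was at 284 to 386 FPKM in every library. Itga2, which encodes the sort marker CD49b, was at 7.79 to 8.11 FPKM with cytarabine and 10.6 to 13.3 FPKM in controls, lower in every cytarabine library (log2 fold change -0.57, limma unadjusted p = 0.00146, adjusted p = 0.136). The myeloid genes Cebpa and Kit did not pass 2.18 and 1.59 FPKM in any library, whereas the T cell receptor subunit gene Cd3g was at 449 to 652 FPKM. The part of these transcripts in the histone values was not tested, and the differences of the members described at length are also given within the libraries of more and of less colon signal. The libraries of less colon signal were cytarabine 1 against control 2 and control 3. Those of more were cytarabine 2 and cytarabine 3 against control 1. Each such difference thus rests on 1 library in one of the groups and is not a replicated comparison.

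Because FPKM values are not counts, an estimate of depth was made from the smallest steps in low values and gave 11500000 to 18900000 reads per library. At that depth, 1 read on a transcript of 500 bases is worth 0.176 to 0.290 FPKM and 3 reads 0.529 to 0.869 FPKM. Many histone genes lay at or under that level.

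The stem-loop at the end of a histone message was looked for in the annotated transcripts, as a perfectly paired stem of 6 bases that opens with GG around a loop of 4 bases that opens with TT, after the stop codon. It was found in 43 of the 66 members with an annotated stop codon (65.2%) and in 50 of 21610 other protein-coding genes (0.231%). The sequences below belong to the members on which the results turn, with the stem-loop in capitals and flanking bases in lower case, 5′ to 3′, from GENCODE transcripts of GRCm38.
Hist1h1c, chr13:23739512-23739527 (+): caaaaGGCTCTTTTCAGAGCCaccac
Hist3h2a, chr11:58955172-58955187 (+): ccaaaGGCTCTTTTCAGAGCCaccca
Hist3h2ba, chr11:58949349-58949364 (+): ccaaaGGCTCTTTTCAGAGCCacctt
Hist2h3c2, chr3:96238485-96238500 (-): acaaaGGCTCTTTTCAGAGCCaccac
Hist1h4d, chr13:23581950-23581965 (+): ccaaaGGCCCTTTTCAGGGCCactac
Hist1h4h, chr13:23531458-23531473 (+): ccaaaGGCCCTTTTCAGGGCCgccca
The H1, H2a, H2b and H3 genes shown share one and the same 16-base stem-loop, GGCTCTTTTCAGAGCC, which 25 members carried (3 H1, 10 H2a, 7 H2b and 5 H3). No H4 gene had it. In 7 H4 genes the stem-loop was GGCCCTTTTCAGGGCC, with a C and G pair in place of a T and A pair. Other H4 genes had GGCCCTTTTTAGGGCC (2 members) or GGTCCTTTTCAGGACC (2 members), and Hist1h4a and Hist1h4k had no match. The remaining forms were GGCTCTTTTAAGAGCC in 6 members and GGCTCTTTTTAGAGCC in 1. In all matches the stem-loop started 22 to 59 bases after the stop codon.

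Most clustered histone genes were near the lower end of what could be measured, and 4 of them held most of the signal. The summed FPKM of the 67 genes was 650.3, 722 and 715 in cytarabine 1, 2 and 3 and 649.6, 867 and 815 in control 1, 2 and 3. Hist1h2bc, Hist1h1c, Hist3h2a and Hist3h2ba together took 82.1 to 84.0% of that sum in each library. Another 4 genes, Hist2h3c2, Hist2h2be, Hist1h3g and Hist2h3c1, had means from 10 to below 20 FPKM, and none lay between 20 and 50 FPKM. Means from 1 to below 10 FPKM were found for 24 genes and means above 0 but below 1 for 26.

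The remaining 9 genes were listed at 0 in every library, namely Hist1h2ad, Hist1h2ah, Hist1h2ao, Hist1h2ap, Hist1h2ba, Hist1h2bj, Hist1h2bk, Hist1h2br and Hist1h4n. Among them is Hist1h2ba, the testis H2B gene. The other testis members were also low, with Hist1h1t at 0 to 0.685 FPKM and Hist1h2aa above 0 only in control 1 (1.92 FPKM) and control 2 (0.442 FPKM). The genes listed at 0 shared a median of 83.4% of their 75-base windows, the read length, with transcripts of other genes (33.2 to 99.8%), against 27.7% for the 32 tested genes. Reads from such shared windows cannot be assigned to 1 gene, so the values of near-identical copies are uncertain.

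Among the 43 members with a stem-loop match, the level per gene also went with the length of the annotated transcript after it. Of the 22 members with over 100 annotated bases after it, 15 had a mean of at least 1 FPKM (68.2%) and 5 a mean of at least 10 FPKM, and their median level was 2.90 FPKM. Of the 21 members with at most 100 bases after it, 8 had a mean of at least 1 FPKM (38.1%), none reached 10 FPKM, 6 were listed at 0 in every library, and their median level was 0.221 FPKM. The poly(A) signal AATAAA stood in the last 50 bases of 13 annotated transcripts, 5 of which had a mean of at least 10 FPKM, against 3 of the 53 others. At the lower limit of 1 FPKM the 2 sets were closer, with 7 of the 13 (53.8%) and 24 of the 53 (45.3%). The plot of level against transcript end shows that Hist1h1c, Hist3h2a, Hist3h2ba, Hist2h3c1 and Hist2h3c2 lie on the long side, with 840, 1643, 169, 1167 and 377 bases after the stem-loop. Of the 23 members without a match, 8 had a mean of at least 1 FPKM (34.8%) and 3 a mean of at least 10 FPKM. Hist1h3g was among the latter, with a mean of 10.3 FPKM and 95 annotated bases after the stop codon. Hist1h2bc, the member with the highest level, had no stem-loop match in its annotated transcript of 2 exons, with 742 bases after the stop codon. This is a description of annotated transcripts, since the ends of the transcripts in these cells were not measured. The share of windows found in other genes also varied among the members, and its part in these levels was not tested.

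**Figure D1:**
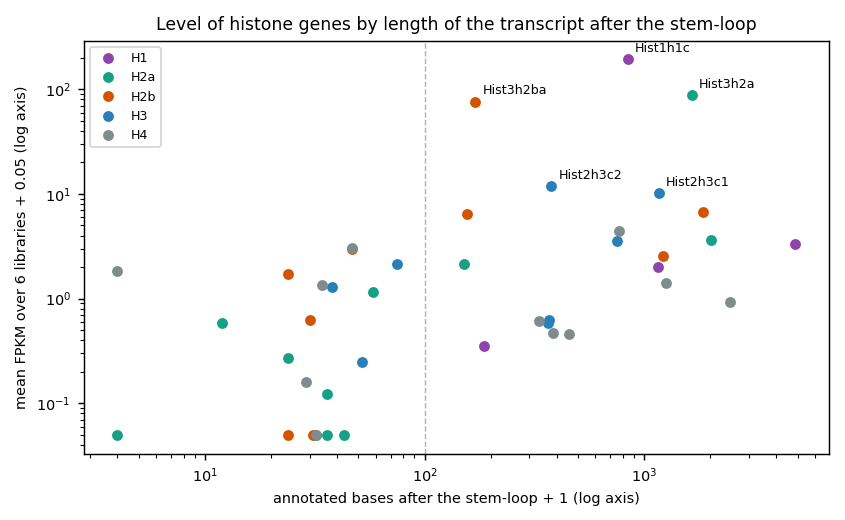
Mean FPKM over the 6 libraries (plus 0.05, log axis) against the annotated bases after the stem-loop (plus 1, log axis) for the 43 members with a stem-loop match, one point per gene, colored by class, with a dashed line at 100 bases. The 5 genes with means of at least 10 FPKM, labelled by name, lie to the right of the line, and the 6 genes listed at 0 lie to its left.

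Promoters of 60 members (61 promoters of 300 bases, from 250 bases before to 50 after the annotated start, RefSeq, GRCm38.p6) were searched on both strands for CCAAT, for TATAA and for the octamer ATTTGCAT, a motif known from H2B promoters. The CCAAT letters were found in 85.2% of the members' promoters and in 37.4% of all 32851 promoters, the TATAA letters in 78.7% against 24.9%, and the octamer in 23.0% against 1.74%. All H1, H2a, H2b and H3 promoters searched held CCAAT, but only 3 of 12 H4 promoters did. The octamer occurred in 7 of 17 H2a and 7 of 16 H2b promoters and in none of the other classes. The promoters of the Hist3 pair, whose levels are compared below, are shown 5′ to 3′ with the motifs found in capitals.
Hist3h2ba, chr11:58948661-58948960 (+): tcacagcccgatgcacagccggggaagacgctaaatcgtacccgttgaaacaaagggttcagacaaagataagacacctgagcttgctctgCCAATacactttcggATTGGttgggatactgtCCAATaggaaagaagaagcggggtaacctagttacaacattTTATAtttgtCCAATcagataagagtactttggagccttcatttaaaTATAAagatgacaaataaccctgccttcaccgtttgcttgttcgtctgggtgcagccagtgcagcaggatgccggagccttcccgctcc
Hist3h2a, chr11:58954435-58954734 (+): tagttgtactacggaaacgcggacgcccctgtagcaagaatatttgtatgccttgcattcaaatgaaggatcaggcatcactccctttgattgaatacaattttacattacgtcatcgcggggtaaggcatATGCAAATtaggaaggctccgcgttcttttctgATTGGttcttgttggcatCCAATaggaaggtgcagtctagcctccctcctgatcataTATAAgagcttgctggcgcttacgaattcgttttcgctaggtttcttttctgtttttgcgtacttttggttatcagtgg
In Hist3h2a, TATAA started 29 bases, CCAAT 68 and 86 bases and the octamer 119 bases before the annotated start. In Hist3h2ba, TATAA started 39 and 86 bases and CCAAT 76, 127, 144 and 159 bases before it, and the octamer letters were not in this window. A match of letters describes the sequence and does not show that a factor binds there.

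In the H1 class, Hist1h1c, which encodes a linker histone that binds DNA between nucleosomes, gave nearly all of the signal. It lies on chromosome 13 (23738808 to 23740367 in GRCm38, plus strand) in a single exon. Its level was 162, 197 and 213 FPKM in cytarabine 1, 2 and 3 and 158, 231 and 195 FPKM in control 1, 2 and 3. The groups overlapped fully, with both the lowest and the highest value in a control library. The log2 fold change on log2(FPKM + 1) was -0.02 (standard error 0.17, 95% interval -0.44 to 0.39, limma adjusted p = 0.945). The log2 difference had opposite signs on the sides of the colon signal, -0.39 in the libraries of less and 0.37 in those of more. Hist1h1d, another linker histone gene, was at 3.27, 3.38 and 4.90 FPKM with cytarabine and 2.52, 3.19 and 2.53 FPKM in controls, which amounts to 0.36 on the log2 scale (standard error 0.18, limma adjusted p = 0.346). Its groups did not overlap, and every cytarabine library was higher, with cytarabine 1 close to control 2. Hist1h1b and Hist1h1e had log2 fold changes of -0.19 and -0.16, while Hist1h1a and Hist1h1t had means under 1 FPKM and were not tested. The summed H1 level was 201 ± 27.8 FPKM with cytarabine and 205 ± 38.4 FPKM in controls (SD, n = 3 mice each).

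In the H2a class, which encodes one partner of the H2A and H2B dimer, Hist3h2a had by far the highest level and was lower in every cytarabine library. Hist3h2a lies on chromosome 11 (58954685 to 58956830 in GRCm38, plus strand) in a single exon. Its level was 81.4, 66.4 and 71.5 FPKM in cytarabine 1, 2 and 3 and 101, 102 and 105 FPKM in control 1, 2 and 3. Every cytarabine library was lower than every control library, and the control values lay within a few FPKM of one another. The mean was 73.1 ± 7.61 FPKM with cytarabine and 103 ± 1.93 FPKM in controls (SD, n = 3), 29.0% lower. The log2 fold change was -0.49 (standard error 0.08, 95% interval -0.70 to -0.28, limma unadjusted p = 0.00123, adjusted p = 0.136), so it did not pass adjustment over all genes. Within the libraries of less colon signal the log2 difference was -0.35, and within those of more colon signal -0.55. With the side of the colon signal as a term in the fit it was -0.45, and the limma adjusted p was then 0.0397, the lowest of 14 settings, over which it ranged up to 0.567. Under that fit 379 of all 11703 tested genes passed an adjusted limma p of 0.05, and Hist3h2a was the 1 of the 32 tested members that did.

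An annotated transcript of Trim17, a gene for a ubiquitin ligase, starts at the same base as Hist3h2a and shares its first exon with it, and 30.6% of the 75-base windows of Hist3h2a occur in other genes, mostly Trim17. Trim17 was at 0.465, 0.643 and 0.405 FPKM in the cytarabine libraries and 0.237, 0.164 and 0.117 FPKM in controls. Its values were thus under 1 FPKM in all 6 libraries and higher with cytarabine, the opposite order to that of Hist3h2a.

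The other H2a genes were much lower. Their sum without Hist3h2a was 8.29, 8.97 and 10.4 FPKM with cytarabine and 12.0, 12.98 and 10.7 FPKM in controls. Those sums did not overlap either, although the nearest pair, cytarabine 3 and control 3, was close. Hist1h2ae was at 2.30, 1.49 and 0.751 FPKM against 2.40, 2.92 and 2.79 FPKM, lower in every cytarabine library, by a difference of -0.60 on the log2 scale (standard error 0.27, limma unadjusted p = 0.0678, adjusted p = 0.313). Hist1h2ac and Hist2h2ac had log2 fold changes of -0.15 and -0.62, and Hist1h2af one of 0.64, all with overlapping groups. The summed H2a level was 82.4 ± 7.15 FPKM with cytarabine and 115 ± 1.28 FPKM in controls (SD, n = 3), 0.717 times the control level.

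In the H2b class, the groups overlapped for the highest gene and were apart for the next. Hist1h2bc lies on chromosome 13 (23684199 to 23692908, plus strand). Its level was 233, 263 and 262 FPKM in cytarabine 1, 2 and 3 and 208, 303 and 282 FPKM in control 1, 2 and 3. As in Hist1h1c, control 1 was the lowest and control 2 the highest library, and the cytarabine values lay between them. The log2 fold change was -0.05 (standard error 0.15, 95% interval -0.42 to 0.32, limma adjusted p = 0.872). As for Hist1h1c, the sign differed between the libraries of less (-0.32) and of more colon signal (0.33). Hist1h2bc and Hist1h2bg share sequence, and 27.1% of the 75-base windows of Hist1h2bc occur in other genes.

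Hist3h2ba, the H2b gene of the Hist3 cluster, lies on chromosome 11 (58948920 to 58949533, plus strand), and its end is 5151 bases before the start of Hist3h2a. Its level was 69.4, 66.0 and 53.6 FPKM in cytarabine 1, 2 and 3 and 77.7, 90.2 and 101 FPKM in control 1, 2 and 3. All cytarabine libraries were again lower than all control libraries. The mean was 63.0 ± 8.35 FPKM with cytarabine and 89.7 ± 11.7 FPKM in controls (SD, n = 3), 29.8% lower. The log2 fold change was -0.50 (standard error 0.14, 95% interval -0.84 to -0.16, limma unadjusted p = 0.011, adjusted p = 0.185). It was -0.46 within the libraries of less and -0.38 within those of more colon signal, and -0.42 with that side as a term (limma adjusted p = 0.084, range 0.083 to 0.567 over all settings). Under the 14 other settings tried, the log2 fold change stayed between -0.60 and -0.39 for Hist3h2ba and between -0.57 and -0.43 for Hist3h2a, with an unadjusted p under 0.05 in every one.

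Both genes of the pair were thus lower by a like percentage in the same libraries, and the sum of the Hist3 cluster was 152, 134 and 127 FPKM with cytarabine and 179.9, 195 and 207 FPKM in controls, 29.1% lower. The third member of that cluster, the pseudogene Hist3h2bb-ps, lies between them on the minus strand and was at 1.18, 1.43 and 1.45 FPKM against 0.817, 2.19 and 0.673 FPKM, with overlapping groups and a log2 fold change of 0.14. For comparison, the summed level of the 53 Hist1 genes was 0.960 times, and that of the 10 Hist2 genes 0.916 times, the control level. The Hist1 sum came mostly from Hist1h2bc and Hist1h1c. By the median log2 fold change of the tested members, the clusters were less far apart. It was -0.49 for Hist3 (3 genes), -0.34 for Hist2 (6 genes) and -0.15 for Hist1 (23 genes). The difference between the clusters was not tested.

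Hist2h2be, an H2b gene of the Hist2 cluster without a stem-loop match, was at 9.91, 13.7 and 11.6 FPKM with cytarabine and 9.75, 9.34 and 9.29 FPKM in controls. Every cytarabine library was higher, with cytarabine 1 close to control 1 (log2 fold change 0.27, standard error 0.12, limma unadjusted p = 0.0665, adjusted p = 0.311). The log2 difference was 0.08 within the libraries of less and 0.34 within those of more colon signal. The other 7 tested H2b genes, Hist1h2bb, Hist1h2be, Hist1h2bg, Hist1h2bh, Hist1h2bm, Hist2h2bb and Hist3h2bb-ps, had log2 fold changes from -0.73 to 0.14 and overlapping groups. Without Hist3h2ba, the summed H2b level was 265, 301 and 293 FPKM with cytarabine and 242, 348 and 316 FPKM in controls, again with control 1 lowest and control 2 highest.

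In the H3 class, which with H4 forms the core tetramer of the nucleosome, Hist2h3c2 was lower in every cytarabine library, while its near copy Hist2h3c1 had overlapping groups. Hist2h3c2 lies on chromosome 3 (96238108 to 96239127, minus strand). Its level was 12.5, 7.26 and 8.90 FPKM in cytarabine 1, 2 and 3 and 13.2, 13.1 and 16.2 FPKM in control 1, 2 and 3. The groups did not overlap, but cytarabine 1 lay close to control 1 and control 2. The log2 fold change was -0.55 (standard error 0.20, limma unadjusted p = 0.0325, adjusted p = 0.249), and it was -0.21 within the libraries of less and -0.65 within those of more colon signal. The unadjusted p was over 0.05 with the replicate block and without any 1 library other than cytarabine 1, with log2 fold changes of -0.74 to -0.39 when a library was left out. Hist2h3c1, its near copy on the same chromosome, was at 11.5, 9.18 and 12.5 FPKM against 8.91, 9.64 and 9.19 FPKM, with overlapping groups and a log2 fold change of 0.23. Of their 75-base windows, 62.6% for Hist2h3c2 and 100% for Hist2h3c1 occur in other genes, mostly the locus Gm20634, which overlaps Hist2h3c1 but not Hist2h3c2. The split of reads between Hist2h3c1 and Hist2h3c2 is therefore uncertain. Hist1h3g was at 10.7, 13.3 and 9.45 FPKM against 5.91, 9.34 and 13.1 FPKM (log2 fold change 0.27), with overlapping groups. The others, Hist1h3a, Hist1h3c, Hist1h3d and Hist1h3i, had log2 fold changes from -0.34 to 0.49 and overlapping groups. Hist1h3i was the member just above the minimum for testing, with a mean of 1.01 FPKM and values of 1.11, 1.72 and 1.08 against 1.53, 0.292 and 0.314 FPKM.

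In the H4 class no gene reached a mean of 10 FPKM and several genes were listed at 0 in single libraries. Hist1h4h, on chromosome 13 (23531050 to 23531519, plus strand), was at 2.82, 4.09 and 4.97 FPKM with cytarabine and 1.55, 2.98 and 1.60 FPKM in controls. It was the one member higher at an unadjusted p under 0.05, although cytarabine 1 lay below control 2 (log2 fold change 0.71, standard error 0.26, limma unadjusted p = 0.0357, adjusted p = 0.256). The log2 difference was 0.25 within the libraries of less and 1.11 within those of more colon signal, and 42.4% of its 75-base windows occur in other genes. Its unadjusted p was over 0.05 after quantile normalization, with the replicate block, with the colon side as a term and without cytarabine 2, cytarabine 3, control 1 or control 3, with log2 fold changes of 0.57 to 0.92 when a library was left out. Hist1h4d, on the same chromosome (23581598 to 23582735, plus strand), was listed at 0 in cytarabine 1 and reached 4.44 and 1.40 FPKM in cytarabine 2 and 3, against 3.93, 7.53 and 8.91 FPKM in controls. Only cytarabine 2 reached into the control range (log2 fold change -1.67, standard error 0.64, limma unadjusted p = 0.0423, adjusted p = 0.274). The log2 difference was -3.20 within the libraries of less colon signal, which hold the value of 0, and -0.45 within those of more. It was -1.05 without cytarabine 1 and -2.27 without cytarabine 2, and -2.89 with a pseudocount of 0.1. The unadjusted p was over 0.05 with that pseudocount and without cytarabine 1, cytarabine 3, control 2 or control 3.

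Hist1h4k, the highest H4 gene, was at 5.70, 12.3 and 8.38 FPKM against 4.59, 6.78 and 10.5 FPKM, with overlapping groups and a log2 fold change of 0.25. Hist1h4m was at 1.16, 1.60 and 1.51 FPKM against 1.78, 1.63 and 3.07 FPKM, without overlap but with its nearest libraries almost equal (log2 fold change -0.36, limma unadjusted p = 0.19, adjusted p = 0.433). Hist1h4f and Hist2h4 were listed at 0 in 1 cytarabine and 1 control library each and had log2 fold changes of -0.18 and -0.14. Hist4h4, the sole gene of its cluster, lay just under the minimum for testing with a mean of 0.872 FPKM, at 0.968, 0.946 and 1.06 against 0.942, 0.602 and 0.712 FPKM.

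**Figure D2:**
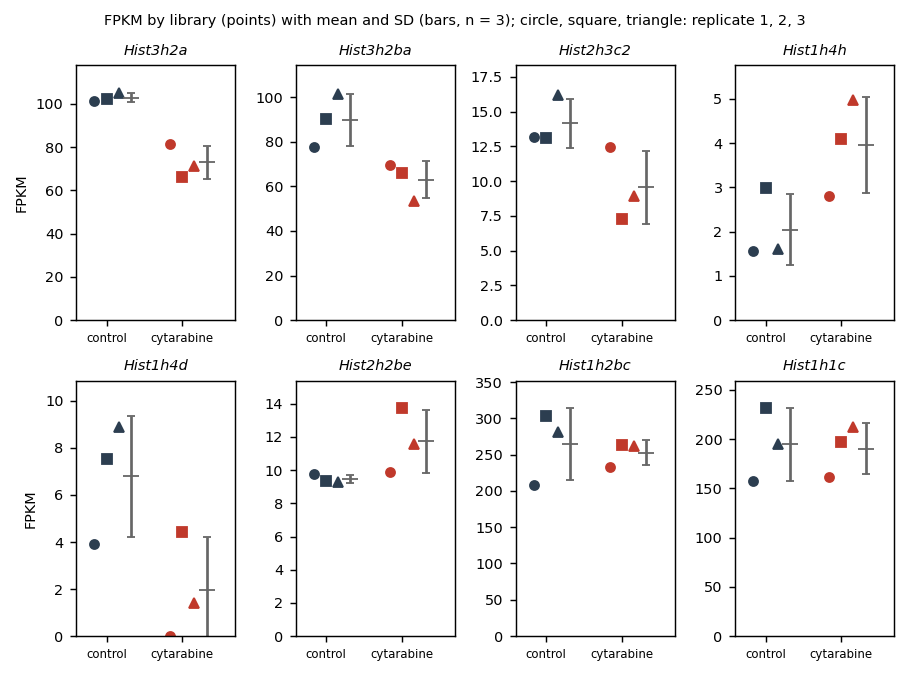
FPKM in each library for 8 histone genes, with control mice on the left and cytarabine-treated mice on the right of each panel, symbols for replicates 1, 2 and 3, and bars for the mean and SD (n = 3 mice). Hist3h2a, Hist3h2ba and Hist2h3c2 lie lower in every cytarabine library, Hist2h2be lies higher in every one, and Hist1h2bc and Hist1h1c overlap.

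**Figure D3:**
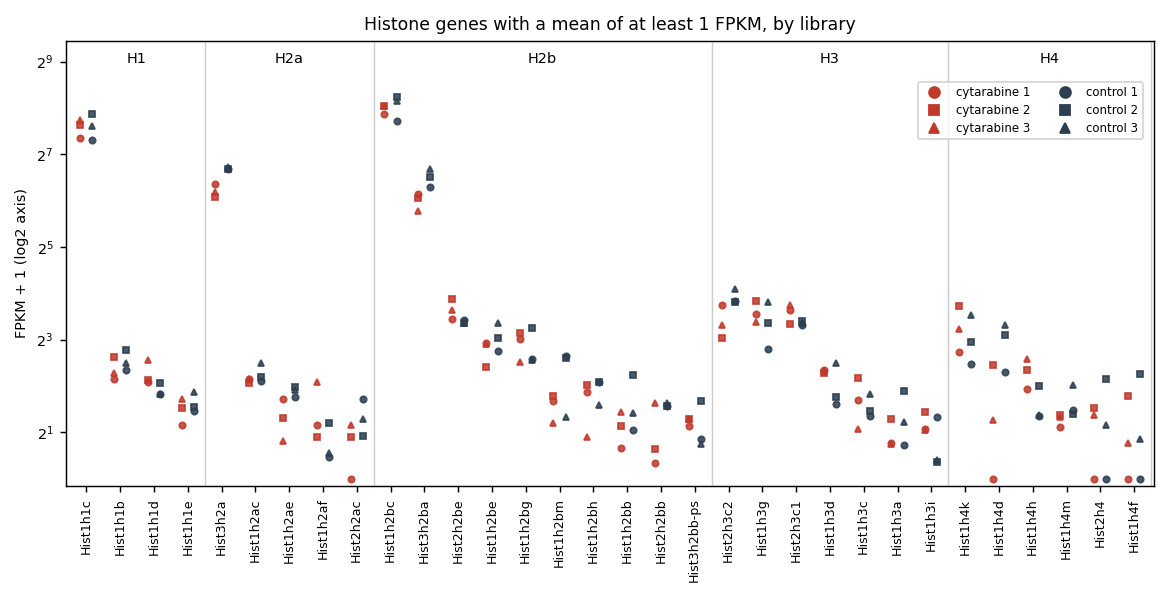
FPKM + 1 (log2 axis) in each of the 6 libraries for the 32 tested histone genes, grouped by class and ordered by mean, with cytarabine libraries in red and control libraries in dark blue. The 4 highest genes, Hist1h1c, Hist3h2a, Hist1h2bc and Hist3h2ba, stand well above the rest, where the libraries of a group spread more widely.

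Over the 32 tested histone genes, none passed an adjusted p of 0.05 in limma. The same held for all 11703 tested genes (0%), of which 2038 had an unadjusted p under 0.05. At that unadjusted level, 1 histone gene was higher with cytarabine (3.12%, against 7.6% of all tested genes) and 4 were lower (12.5%, against 9.81%). Groups did not overlap for 2 higher histone genes (6.25%, against 10.9% of all tested genes) and 5 lower ones (15.6%, against 12.9%). These shares lay near those of all genes. The median log2 fold change was -0.16 over the histone genes and -0.0015 over all tested genes, with 12 histone genes above 0 and 20 below. By class, the median was -0.09 for H1, -0.49 for H2a, -0.31 for H2b, 0.23 for H3 and -0.16 for H4, and no class held more than 1 gene in each direction at an unadjusted p under 0.05. With 5 tested H2a and 7 tested H3 genes, those medians are the values of Hist3h2a and Hist2h3c1 themselves. The median over the histone genes came to 0.01 without control 2 and to 0.0014 without cytarabine 1, so its sign rests on single libraries. The class medians moved as well. The H4 median was 0.29 without cytarabine 1, 0.31 without control 2 and -0.56 without control 1, the H3 median was -0.0011 without control 1, and the H1 median was 0.04 without cytarabine 1 and 0.02 without control 2. The H2a and H2b medians stayed below 0, at -0.28 for H2a without cytarabine 1 and -0.19 for H2b without control 2 when a library was left out.

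**Figure D4:**
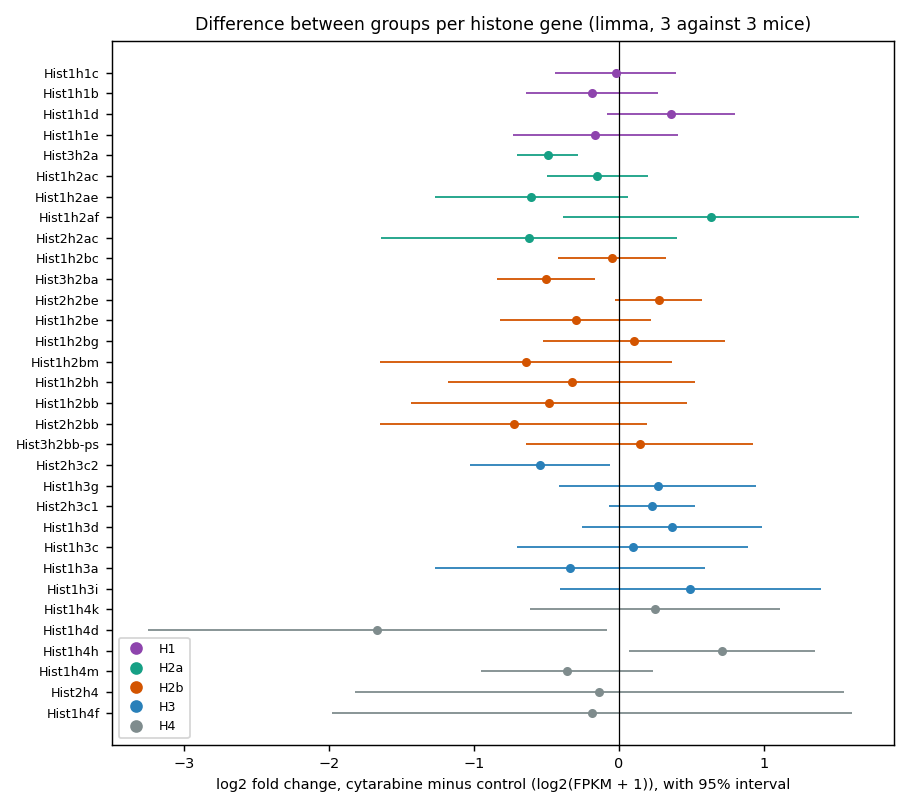
Log2 fold change (cytarabine minus control, on log2(FPKM + 1)) with its 95% interval from limma for each of the 32 tested histone genes, colored by class and ordered by mean level within the class. The intervals of Hist3h2a, Hist3h2ba, Hist2h3c2 and Hist1h4d lie below 0 and that of Hist1h4h above 0, and the low H4 genes have the widest intervals.

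The spread between replicates set how small a difference could be seen. The SD within groups on the log2(FPKM + 1) scale had a median of 0.24 over the 11 tested histone genes whose mean was 5 FPKM or more, from 0.11 for Hist3h2a to 0.51 for Hist1h4k, against 0.14 over all genes at such levels. For the 21 histone genes with means from 1 to below 5 FPKM the median was 0.43, up to 1.03 for Hist1h4f, against 0.31 over all genes at such levels. The summed level of all 67 genes was 696 ± 39.5 FPKM with cytarabine and 777 ± 113 FPKM in controls (SD, n = 3), with overlapping groups.

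The genes that make and use histone messages were read beside them. Of 15 tested genes for the transcription and 3′ end processing of histone messages, 3 were higher (20%, against 7.6% of all tested genes) and 1 was lower (6.67%, against 9.81%) at an unadjusted p under 0.05, none after adjustment, with a median log2 fold change of -0.02. Slbp, whose protein binds the stem-loop shown above, had levels of 136, 133 and 126 FPKM in cytarabine 1, 2 and 3 and 94.9, 110.4 and 109 FPKM in control 1, 2 and 3. Every cytarabine library was higher than every control library (log2 fold change 0.33, standard error 0.08, limma adjusted p = 0.166). Cyclins E1 and E2 activate the kinase Cdk2 at the entry to S phase, where it acts on the histone gene coactivator Npat. Ccne2 was at 11.2, 9.41 and 9.18 FPKM against 5.43, 5.35 and 6.37 FPKM (log2 fold change 0.70, standard error 0.11, limma adjusted p = 0.136). Ccne1 was at 53.2, 51.1 and 44.5 FPKM against 33.0, 39.5 and 40.6 FPKM (log2 fold change 0.39, standard error 0.11, limma adjusted p = 0.193). Neither cyclin gene had overlapping groups.

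Npat itself was at 15.4, 11.0 and 12.96 FPKM with cytarabine and 11.4, 10.2 and 12.3 FPKM in controls, with overlapping groups (log2 fold change 0.19, limma adjusted p = 0.449). Sympk, which encodes symplekin, a scaffold of the machinery that cleaves both histone and polyadenylated messages, was lower in every cytarabine library, at 45.4, 40.8 and 38.8 FPKM against 49.1, 53.1 and 59.4 FPKM (log2 fold change -0.36, standard error 0.10, limma adjusted p = 0.183). With the side of the colon signal as a term in the fit, Slbp, Ccne1 and Ccne2 had limma adjusted p of 0.0403, 0.0441 and 0.0301, and Sympk 0.0727, and over all settings the adjusted p of these 4 genes ranged from 0.0301 to 0.567. Under that fit 379 of all genes passed, against 0 without the term.

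**Figure D5:**
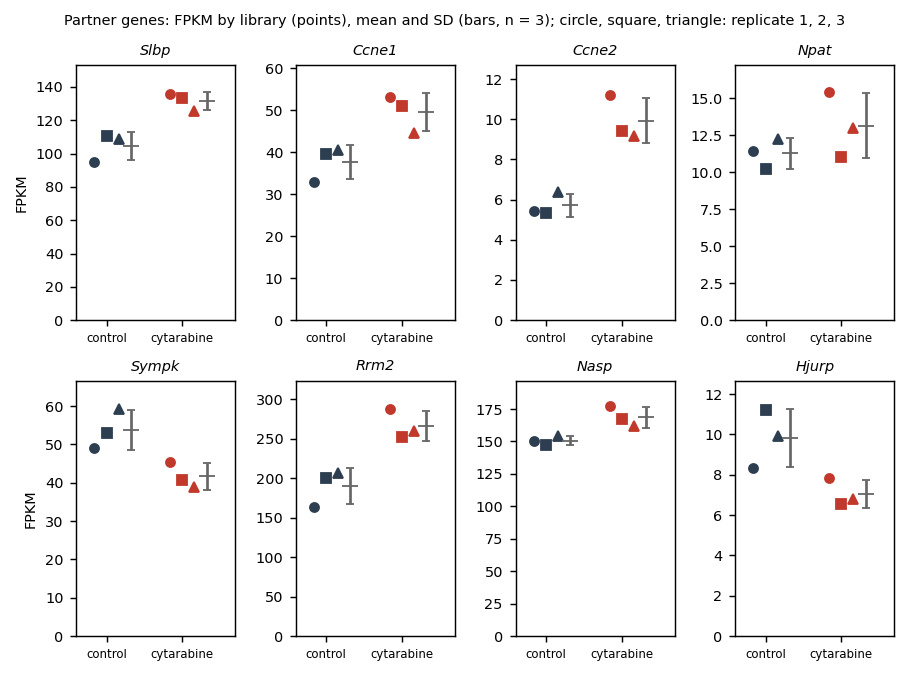
FPKM in each library for 8 genes that act on histone messages, histones or S phase, with control mice on the left and cytarabine-treated mice on the right, symbols for replicates 1, 2 and 3, and bars for the mean and SD (n = 3 mice). Slbp, Ccne1, Ccne2, Rrm2 and Nasp lie higher and Sympk and Hjurp lower in every cytarabine library, while the Npat groups overlap.

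Of 14 tested genes for histone chaperones and carriers, 1 was higher (7.14%, against 7.6% of all tested genes) and 3 were lower (21.4%, against 9.81%) at an unadjusted p under 0.05, with a median log2 fold change of -0.08. Nasp, a carrier of newly made H3 and H4 and of H1, was at 177, 167 and 162 FPKM with cytarabine and 151, 147 and 154 FPKM in controls (log2 fold change 0.16, limma adjusted p = 0.25). Those lower in every cytarabine library were Hjurp, the chaperone of the centromere histone Cenpa (log2 fold change -0.42, limma adjusted p = 0.206), Anp32e, a chaperone of H2afz (-0.28, 0.228), and Ipo4, a nuclear import receptor (-0.40, 0.242). Atrx also had no overlap between groups, with a log2 fold change of -0.24 and an unadjusted limma p of 0.0806.

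Of 9 tested histone variant and H1 genes outside the clusters, none was higher or lower at an unadjusted limma p under 0.05, and the median log2 fold change was 0.0025. H2afz, the gene of variant H2A.Z, was at 909, 859 and 793 FPKM with cytarabine and 771, 962 and 857 FPKM in controls, above every clustered histone gene on this per-length scale. H3f3b, for the replacement histone H3.3, was at 616, 649 and 647 FPKM against 555, 609.7 and 583 FPKM, without overlap (log2 fold change 0.13, limma adjusted p = 0.319). H2afx, whose phosphorylated protein marks DNA breaks and whose message is known both with a stem-loop end and with a poly(A) tail, was at 311, 259 and 276 FPKM against 271, 416 and 371 FPKM, with overlapping groups (log2 fold change -0.30, limma adjusted p = 0.38).

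Of 30 tested S phase genes, 3 were higher (10%, near the 7.6% of all tested genes) and none was lower (against 9.81%) at an unadjusted p under 0.05. The median log2 fold change was 0.11 and 22 lay above 0. Rrm2, a subunit of ribonucleotide reductase, which supplies deoxynucleotides, was at 287, 252 and 259.9 FPKM with cytarabine and 164, 201 and 206 FPKM in controls (log2 fold change 0.49, standard error 0.11, limma adjusted p = 0.155). The others were Rfc3, a subunit of the clamp loader (log2 fold change 0.35, limma adjusted p = 0.192), and Cdc6, which loads the replicative helicase (0.35, 0.246). All 3 were higher in every cytarabine library, and with the side of the colon signal as a term their limma adjusted p were 0.0258, 0.0456 and 0.0462, within a range of 0.0258 to 0.579 over all settings. In the 3 cytarabine libraries, Rrm2, Rfc3, Cdc6, Slbp, Ccne1 and Ccne2 lay above every control and Hist3h2a and Hist3h2ba below every control. Hist1h2bc and Hist1h1c lay within the control range. These 3 libraries are the whole cytarabine group, and the genes apart from the controls are set together here because they were apart. Their opposite directions are therefore no sign of a link between them, which was not tested.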

How the data were processed

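RNA was measured in sorted C1498 cells of 3 cytarabine-treated and 3 control mice. Single-end reads of 75 bases were mapped to mm10 by the authors with TopHat2 2.0.13 and Bowtie2 2.2.3, with SAMtools 0.1.19, and deposited FPKM per gene from Cufflinks 2.2.1, which is already divided by transcript length and library size. The annotation, Cufflinks options and the strand setting are not given in the sources used here.

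Values were taken as log2(FPKM + 1). A minimum mean of 1 FPKM left 11703 of 23284 genes, to which limma 3.58.1 was applied under R 4.3.3 (trend, two-sided, Benjamini-Hochberg adjustment over all 11703). The added 1 makes fold changes of low genes too small. Groups came from the sample records. The members and gene lists were chosen with earlier results of these data known. Every member is accounted for. Values per library are given for members with an unadjusted p under 0.05 or groups without overlap, the 5 highest, the highest of each class and those nearest the minimum of 1 FPKM. From each list up to 4 genes per direction with the smallest p are named, besides Slbp and Npat, while H2afz, H2afx, H3f3b and Atrx were named after their values were seen. Positions, overlaps and stem-loops were read from GENCODE M21 (GRCm38), and promoters from RefSeq (GRCm38.p6). The side of the colon signal splits the libraries at the middle of the range of a score over the colon genes. On each side, one of the groups has only 1 library.

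Depth was inferred from the steps of low values, assuming fragments of 200 bases, with 80.1 to 85.4% of low values within 0.15 of a whole read. Because the values fall short of whole reads, no test on counts was made. This fit was also tested on simulated data. The alternatives were another pseudocount (0.1), no filter or a minimum of 5 FPKM, median-of-ratios scaling, quantile normalization, no intensity trend, the replicate block, the colon side as a term, and leaving out each library. Summaries and figures were made in Python 3.11.15 with pandas 2.3.3 and matplotlib 3.10.9.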

Additional observations from a re-analysis of the deposited data

How the results depend on the processing

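With 3 mice a group and 11500000 to 18900000 inferred reads, low histone genes rest on few reads, and the cause of the shifts below was not tested. The 1 histone gene higher at an unadjusted p under 0.05 became 2 with no filter on low FPKM, 0 with a minimum of 5 FPKM, 0 after quantile normalization, 0 with the replicate block, 0 with the colon side as a term and 0 to 2 when a library was left out. The 4 lower ones became 7 after quantile normalization and 2 to 4 when a library was left out, 2 of them without control 2. In either direction, 2038 of all 11703 tested genes had an unadjusted limma p under 0.05 in the main fit. That count was 1941 after quantile normalization and 1179 to 4075 when a library was left out. Shares of all genes by direction are not given for these settings, so the member counts cannot be set against them. No histone gene passed an adjusted p of 0.05 except with the colon side as a term, where 1 did (Hist3h2a). Of all genes, 0 passed in limma, against 1 with a pseudocount of 0.1, 2 without the intensity trend, 379 with the colon side as a term and 0 to 5 when a library was left out. The median log2 fold change of the histone genes was -0.40 after quantile normalization, which shifted the median of all genes to -0.06, and -0.25 to 0.014 when a library was left out. The H2a median was -0.16 with no filter. Hist1h2bc changed sign with the colon side as a term (0.0059). When a library was left out, its log2 fold change ran from -0.21 to 0.060, that of Hist1h1c from -0.17 to 0.11 and that of Hist1h4k from -0.0068 to 0.52. Of 27 genes under 14 settings, 357 values kept their direction and their side of an adjusted limma p of 0.05. At that threshold 7 passed anew, 8 values changed sign, and 6 gave no value with the minimum of 5 FPKM. No gene passed that threshold in the main fit, so a kept side does not mean that an unadjusted call was kept. Hist1h4h after quantile normalization counts as kept, with an unadjusted limma p of 0.15.

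The sample records hold 2 numberings. That of the titles has 1 number common to both groups, which allows no block, so the numbers of the source names were used. The deviations of same-numbered libraries correlated at -0.71, -0.25 and -0.59. Same-numbered libraries also lay on opposite sides of the colon signal, and no correlation of differently numbered ones was made. These values therefore cannot show whether the numbers pair the mice. With the replicate block, 0 genes passed an adjusted p of 0.05 and 994 an unadjusted one, against 2038 without it, and 0 histone genes were higher and 3 lower.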
